A study of Homo sapiens with 12 samples.

Results

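The miRNA hsa-miR-139-5p was switched on for 96 h in CAL62 cells, and polyA RNA was measured before and after. The 6 libraries described here, of 12 in the series, were those of the line labelled as expressing the mature miRNA (here the miR-139 line), 3 of them untreated and 3 treated with doxycycline at 1 µg/ml, and were taken by their names in the table. CAL62 is an established line from a human anaplastic thyroid carcinoma, an undifferentiated thyroid tumour. The other 6 libraries, 3 per condition at the same dose and time, come from an isogenic CAL62 line with a scrambled sequence in place of the miRNA (the scrambled or control line) and serve as background. Doxycycline is thus shared by both treated groups. Untreated libraries are labelled 0 h and treated ones 96 h, so within a line doxycycline and time cannot be told apart. PolyA libraries do not hold the mature miRNA, so its own level was not measured, and its gene MIR139 is listed at 0 in all 12. The host gene PDE2A, a cyclic nucleotide phosphodiesterase, was at 7.91, 4.98 and 3.47 FPKM in C, NE and TR untreated and at 4.71, 4.76 and 2.89 treated (log2(FPKM + 1) difference −0.30, SE 0.17), with overlapping groups. The labels do not say whether a line is 1 clone. In each group the libraries carry the tags C, NE and TR, and a change was taken within a tag, treated against untreated. Of 37471 genes in the table, 9787 had a mean of at least 1 FPKM (fragments scaled to transcript length and library total) over the 6 libraries and were tested. Chromosomes 3 to 9 hold further genes that were not analysed here.

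A miRNA guides an Argonaute protein to messenger RNAs that pair with its seed, bases 2 to 8 from the 5′ end, most often in the 3′ UTR, and the bound transcripts are degraded or translated less. Sites that pair with the whole seed and have an A opposite base 1 (8mer) are on average repressed more than those that lack the A (7mer-m8), those that lack the pair at base 8 (7mer-A1) and those that lack both (6mer). miR-139-5p is encoded within an intron of PDE2A and is known as a miRNA that is often low in carcinomas. The mature sequences of both arms of the hairpin, which lies at chr11:72615063-72615130 on the minus strand (RefSeq, GRCh38.p14), are shown with the seed in capitals, since the sites searched below follow from them.
hsa-miR-139-5p: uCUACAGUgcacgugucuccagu
hsa-miR-139-3p: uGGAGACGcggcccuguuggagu

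The libraries differed in relative depth and, by tag, in the share of mitochondrially encoded genes. The relative depth read from the steps of low values was 0.720 (untreated TR) to 1.16 (treated C) times that of the untreated C library, so the untreated TR values are the least precise. Mitochondrially encoded genes took 12.01% of the FPKM of the untreated and 12.7% of the treated C library and 12.3% and 12.6% of the TR libraries, but 9.18% and 7.56% of the NE libraries. KRT8 and KRT18, keratins of simple epithelium, were at 523 to 716 FPKM and PAX8, a thyroid lineage factor, at 86.2 to 142, whereas the thyroid markers NKX2-1 and TSHR were listed at 0 in all 6 libraries. The other epithelial markers went both ways. KRT19 was at 291.5 to 353.2 FPKM and EPCAM at 26.98 to 48.96, but the cadherin CDH1 was at most 0.123 untreated and 0.034 treated. Of the markers of other cell types, PTPRC and CD3E of leukocytes, COL3A1 of fibroblasts, KRT5 of keratinocytes and CALCA of thyroid C cells were listed at 0 in all 6. The summed fibroblast markers, almost all of it COL1A1, were 48.0 to 90.3 FPKM untreated and 50.7 to 97.4 treated, and the summed leukocyte markers, almost all of it CD68, were 5.88 to 10.1 and 5.46 to 9.97. Those of endothelium summed to 1.04 to 2.43 and 1.15 to 2.35, of keratinocytes to 11.2 to 16.8 and 11.3 to 18.4, and of C cells to at most 0.617. The labels do not say that the libraries of a group came from separate cultures: p-values reflect the variation among these libraries only, which may be technical.

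At 96 h of doxycycline 2 genes were lower past the threshold in the miR-139 line, and both carry a seed site. HNRNPF, which encodes a splicing regulator of the hnRNP F/H family and is named in the title of the series, was at 193 FPKM in C, 238 in NE and 184 in TR before treatment and at 96.7, 113 and 85.8 after it. EIF4G2, a relative of the scaffold eIF4G that supports translation without the cap-binding subunit, was at 438, 451 and 442 and then at 252, 238 and 264. In both genes every treated library lay below every untreated one. HNRNPF fell by 1.05 on the log2(FPKM + 1) scale (SE 0.08, limma adjusted p = 3.55e-05) and EIF4G2 fell by 0.82 (SE 0.10, limma adjusted p = 0.00456). These were 2 of 9787 genes (0.0204%), none was higher (0.0%) in this fit, and 441 genes (4.51%) had an unadjusted p below 0.05, 210 of them lower (2.15%). The control line had 0 calls (0.0%) and 388 genes (3.96%) below an unadjusted p of 0.05. The difference between the lines' changes passed for HNRNPF alone (limma adjusted p = 0.00164, 1 gene or 0.0102% of those tested, beside 3.45% with an unadjusted p below 0.05), and for EIF4G2 the adjusted p of the difference was 0.524, although EIF4G2 also passed when the tags were blocked within each line. The difference for HNRNPF no longer passed when any 1 tag was left out. Both calls rest on comparing libraries within tags: without the block for the tag the adjusted p was 0.337 for each. Without the C libraries the adjusted p was 0.0729 for HNRNPF and 1.00 for EIF4G2, while the log2 changes were −1.08 and −0.83.

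Below these 2 genes no single gene passed in the fit of both lines, and the genes that moved most evenly over the tags are described by their values. The genes named next are the 14 lower and 14 higher ones with a mean of at least 5 FPKM whose smallest change over the 3 tags was largest, and they were chosen for that, so their direction is no finding. Of the 14 lower genes, 10 could be matched to an annotated 3′ UTR, and 6 of the 10 held an 8mer or 7mer-m8 site for miR-139-5p: HNRNPF, EIF4G2, LCLAT1, E2F7, BTG3 and PMP22. Of the 14 higher genes, 11 could be matched and 0 held such a site. Over all 7938 matched genes 897 (11.3%) held one. Of the 4 lower genes without a site in the 3′ UTR, CPSF3 had an 8mer in its coding sequence and CCNB1IP1 one in its 5′ UTR, where 165 of the 7938 genes (2.08%) have an 8mer upstream of the stop codon, whereas ACYP2 and PROSER2 had neither an 8mer nor a 7mer-m8. The sites are printed for comparison, with capitals marking the letters that match the 8mer ACTGTAGA or the 7mer-m8 ACTGTAG. They are the sense strand of GENCODE 29 transcripts (GRCh38).
HNRNPF: gagacacaatactaatACTGTAGga
EIF4G2: aatagcaacactgaatACTGTAGAaa
LCLAT1: tctctaaacactggtcACTGTAGca
E2F7: atccaagggtattcaaACTGTAGtt
BTG3: tgttggatacgagaacACTGTAGAag
PMP22: cttgtattggccaccaACTGTAGAtg
CPSF3: taacttggagacacggACTGTAGAat
CCNB1IP1: tgtaaatcctggatatACTGTAGAtg

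In the 3′ UTRs the matches lie at chr10:43386151-43386157 (HNRNPF, minus strand, last of 4 exons), chr11:10797458-10797465 (EIF4G2, minus strand, last of 22), chr2:30643877-30643883 (LCLAT1, plus strand, last of 7), chr12:77022897-77022903 (E2F7, minus strand, last of 12), chr21:17593801-17593808 (BTG3, minus strand, last of 5) and chr17:15229899-15229906 (PMP22, minus strand, last of 5). The CPSF3 match is at chr2:9472916-9472923 on the plus strand, in the coding part of the last of 18 exons, and the CCNB1IP1 match at chr14:20325563-20325570 on the minus strand, in exon 4 of 8 of the transcript searched. A match is a string of letters and does not show that the miRNA binds there.

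Among the lower genes, CPSF3 had the smallest p after the 2 calls. It encodes the endonuclease that cuts pre-mRNA at the polyadenylation site, and was at 33.1, 45.8 and 38.8 FPKM untreated and 26.0, 29.1 and 26.3 treated in C, NE and TR. Its groups did not overlap, as for 199 genes (2.03%) that were lower, but the log2 change of −0.50 (SE 0.09) missed the threshold (limma adjusted p = 0.173). Its fitted log2 difference in the scrambled line was 0.05 (SE 0.09). CCNB1IP1, a RING-type ubiquitin ligase that binds cyclin B, went from 85.6, 71.3 and 61.2 FPKM to 57.8, 54.9 and 42.1. All 3 treated libraries were below all untreated ones in the miR-139 line (log2 −0.49, SE 0.10), while the gene was higher in 3 of 3 tags of the scrambled line (0.20, SE 0.10). The difference between the lines had a limma adjusted p of 0.823. In the paired fit on the 6 libraries of the miR-139 line alone, CPSF3 (limma adjusted p = 0.0495), E2F7 (0.0495) and CCNB1IP1 (0.0288) passed as lower.

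BTG3, an antiproliferative protein of the BTG/TOB family that recruits deadenylases, was at 28.3, 29.3 and 23.5 FPKM untreated and at 21.5, 19.4 and 17.4 treated (log2 −0.45, SE 0.09, limma adjusted p = 0.354). LCLAT1, an acyltransferase that remodels cardiolipin and phosphatidylinositol, was at 9.12, 9.64 and 7.69 and then at 6.06, 5.66 and 5.19 (−0.56, SE 0.12, limma adjusted p = 0.382). In both genes the groups did not overlap, and the control line's log2 differences were 0.08 (SE 0.09) and 0.04 (SE 0.12). E2F7, a repressor of the E2F family, was at 39.8, 29.3 and 28.1 FPKM and then at 28.3, 17.6 and 21.1, so that the treated C library overlapped the untreated ones although each tag was lower (−0.53, SE 0.12). PMP22, a membrane protein of peripheral myelin also made outside nerve, was at 5.14, 8.35 and 9.84 and then at 3.24, 6.58 and 6.76 (−0.44, SE 0.11). The remaining lower genes were ACYP2, an acylphosphatase (−0.38, SE 0.11), PROSER2, a protein of poorly known function (−0.37, SE 0.10), and 4 genes known by clone names, RP11-386M24.4 (−0.70), AF127577.10 (−0.51) and 2 more at −0.50 and −0.45.

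**Figure D1:**
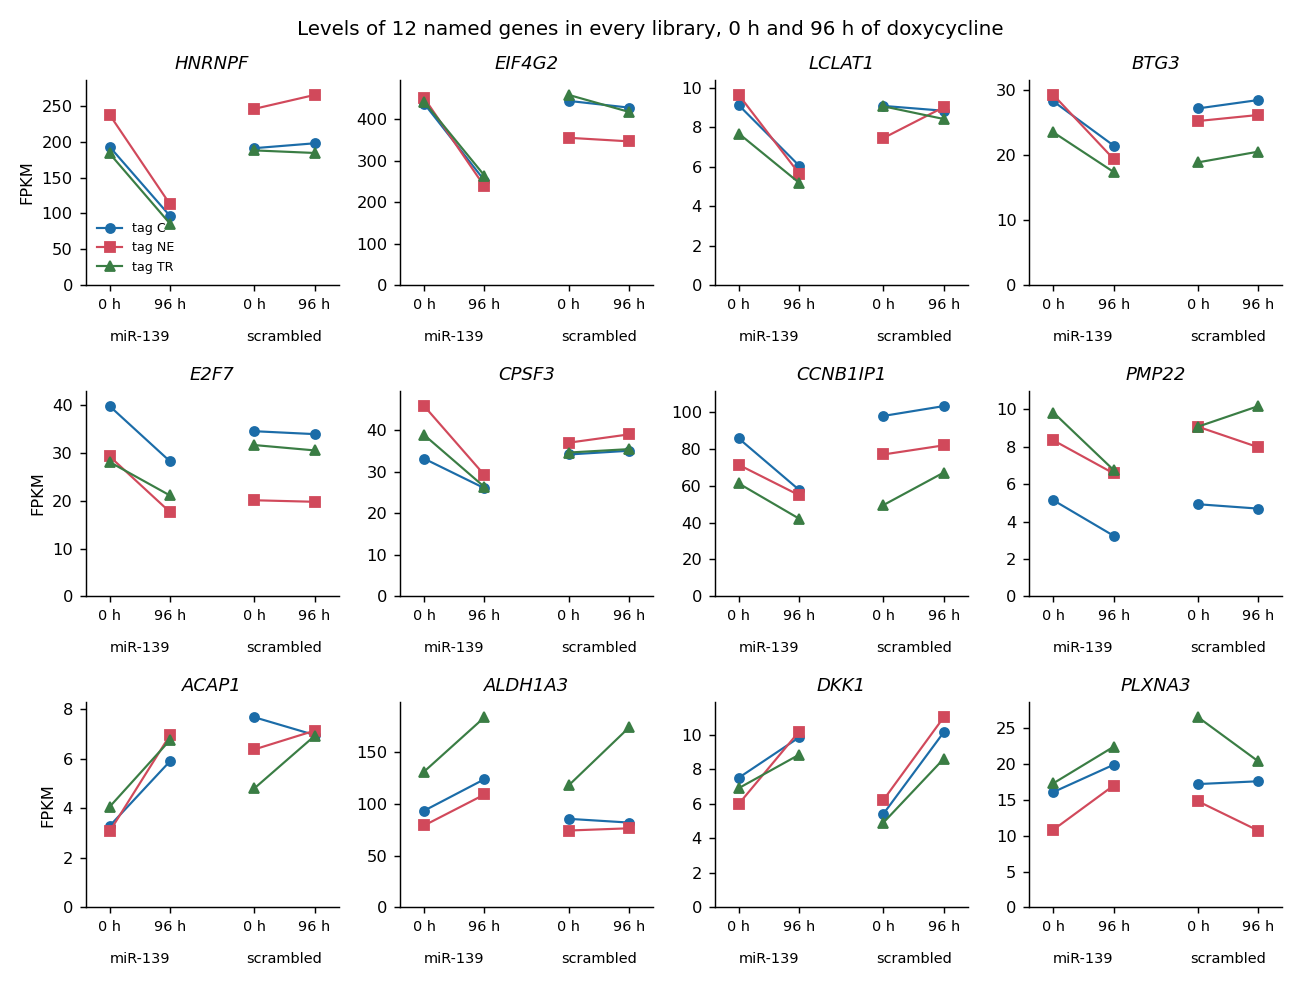
FPKM (vertical axes, from 0) of 12 named genes in every library at 0 h and 96 h of doxycycline, with lines joining the libraries of a tag (circle C, square NE, triangle TR). In each panel the left pair is the miR-139 line and the right pair the scrambled control. HNRNPF and EIF4G2 drop in every tag of the miR-139 line, BTG3, CPSF3 and CCNB1IP1 are lower there and slightly higher in the scrambled line, and DKK1 is higher in both lines.

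The higher genes had lower levels and smaller effects relative to their errors. ACAP1, a GTPase-activating protein for ARF6 that acts in endosomal recycling, was at 3.29, 3.07 and 4.07 FPKM untreated and at 5.90, 6.96 and 6.76 treated. Its groups did not overlap, as for 231 genes (2.36%) that were higher, and its log2 change of 0.76 (SE 0.15) missed the threshold (limma adjusted p = 0.354). In the scrambled line ACAP1 was at 7.69, 6.38 and 4.81 FPKM untreated and at 6.97, 7.14 and 6.93 treated. The untreated libraries of the miR-139 line were thus the lowest of both lines. In the paired fit on the 6 libraries of this line alone, ACAP1 (limma adjusted p = 0.0497), ALDH1A3 (0.0288) and RPL9P8 (0.0497) passed as higher. ALDH1A3, which makes retinoic acid from retinal, was at 93.6, 79.3 and 131 and then at 124, 109 and 184 (0.45, SE 0.11), higher in each tag although the groups overlapped. Its log2 difference in the scrambled line was 0.18 (SE 0.11) with mixed signs, and TR there went from 118 to 174 FPKM. DKK1, a secreted inhibitor of the WNT co-receptors, was at 7.5, 5.99 and 6.90 and then at 9.83, 10.2 and 8.83 (0.45, SE 0.12), and its log2 difference in the scrambled line was 0.74 (SE 0.12), higher in 3 of 3 tags there too. PLXNA3, a semaphorin receptor, was at 16.1, 10.8 and 17.3 and then at 19.9, 17.0 and 22.4 (0.42, SE 0.12). The others were APLP1 of the amyloid precursor family, the serine racemase SRR, the dehydratase SDSL, the adhesion receptor BAI2, the phosphatase DUSP23, the kinase CDK16, the proteasome-associated ZFAND2B and the clones AL034548.1 and RP11-521B24.5, with log2 changes from 0.32 (CDK16) to 0.59 (AL034548.1). RPL9P8 (0.57, SE 0.21) is a pseudogene copy of the ribosomal protein gene RPL9, and how reads were split between such copies is not given, so its value is uncertain.

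**Figure D2:**
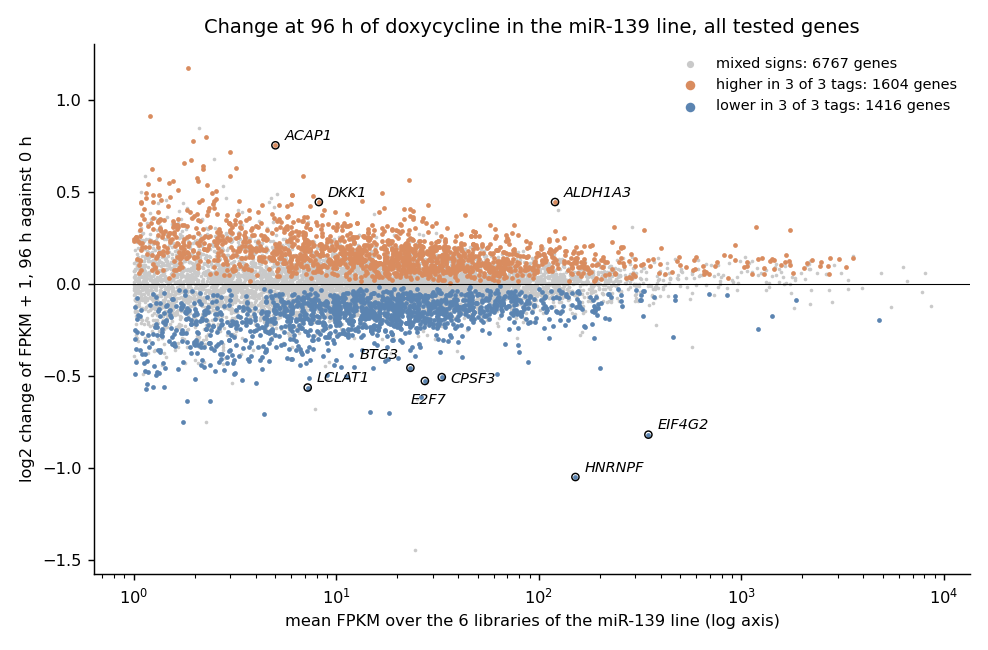
Log2 change of FPKM + 1 at 96 h against 0 h (vertical axis) by mean FPKM over the 6 libraries of the miR-139 line (horizontal log axis), 1 point per tested gene, coloured by whether all 3 tags were lower (1416 genes), higher (1604) or mixed (6767). HNRNPF and EIF4G2 stand below all other genes of more than 100 FPKM.

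Counted over all genes, 1416 (14.5%) were lower in 3 of 3 tags and 1604 (16.4%) higher, against 1229 (12.6%) and 1974 (20.2%) in the scrambled line. The share with 1 sign in all tags was thus 30.9% with the miRNA and 32.7% with the scrambled sequence. The median log2 change of all tested genes was 0.0034. FPKM values are shares of a library, and after rescaling to the genes that are not mitochondrially encoded the counts were 1809 lower and 1253 higher, and those of the control line 2097 and 962, with the median of all genes in the miR-139 line at −0.023. A decrease past 0.3 on the log2 scale in each tag was seen for 32 genes with the miRNA and 12 with the scrambled sequence, 0 of them shared, and an increase past 0.3 for 28 and 29, with 1 gene shared. These counts carry no test.

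The median of the fitted changes was ordered by the type of seed site, although this order did not hold within TR alone. Each matched gene was put in 1 class by the best site in the longest annotated 3′ UTR of its transcripts, searched on the sense strand as ACTGTAGA (8mer), ACTGTAG (7mer-m8), CTGTAGA (7mer-A1) or CTGTAG (6mer), a longer match taking precedence over the shorter ones within it. The median log2 change in the miR-139 line was −0.077 for 273 genes with an 8mer, −0.040 for 624 with a 7mer-m8, −0.032 for 583 with a 7mer-A1, −0.00099 for 1426 with a 6mer and 0.015 for 5032 with none, the last of which was −0.012 after rescaling without mitochondrially encoded genes. The same classes had medians of 0.014, 0.00078, 0.010, 0.016 and 0.031 in the control line. The share of genes lower in 3 of 3 tags was 29.7%, 24.2%, 20.1%, 15.3% and 12.5% in the order of the classes with the miRNA, beside 14.5% of all tested genes. The control line had 11.7%, 16.7%, 13.7%, 14.5% and 11.6%, beside 12.6% of all tested genes. The share higher in 3 of 3 tags in the miR-139 line was larger along the same order, from 6.23% with an 8mer to 18.5% with none. Without HNRNPF and EIF4G2, the median of the 8mer class was −0.076.

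The 8mer class was below the class without a site in each tag, with medians of −0.061 against 0.020 in C, −0.15 against 0.057 in NE and −0.036 against −0.012 in TR. The gap was widest in NE and smallest in TR. In TR the class without a site was also below the classes between, with medians of −0.0098 (7mer-m8), 0.0031 (7mer-A1) and 0.0058 (6mer). Genes with sites have longer 3′ UTRs (a median of 3281 bases with an 8mer and 822.5 with no site), so the classes were also compared in 3 equal groups of UTR length, up to 771 bases, up to 2086 and longer. Genes with an 8mer or 7mer-m8 had medians of −0.038, −0.046 and −0.049 in the shortest, middle and longest group, and genes without a site had 0.029, 0.0084 and −0.0057. In the control line the genes without a site had medians of −0.0054 in the longest and 0.050 in the shortest group. The part of UTR length and base composition in these values was not tested. Sites for the other arm, miR-139-3p, showed no such order: 126 genes with its 8mer CGTCTCCA had a median of 0.011 and 5140 without a site one of 0.00046. Among genes with no 7mer or 8mer in the 3′ UTR, an 8mer upstream of the stop codon went with a median of −0.036 (129 genes, 20.2% lower in 3 of 3 tags) and no site there with 0.019 (5180 genes, 12.2%). These upstream classes were not ordered by site type. The median was −0.023 with a 7mer-m8 (14.85% lower, 15.35% higher) and −0.038 with a 7mer-A1 (20.2% lower). In TR the upstream 8mer class had a median of 0.010.

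**Figure D3:**
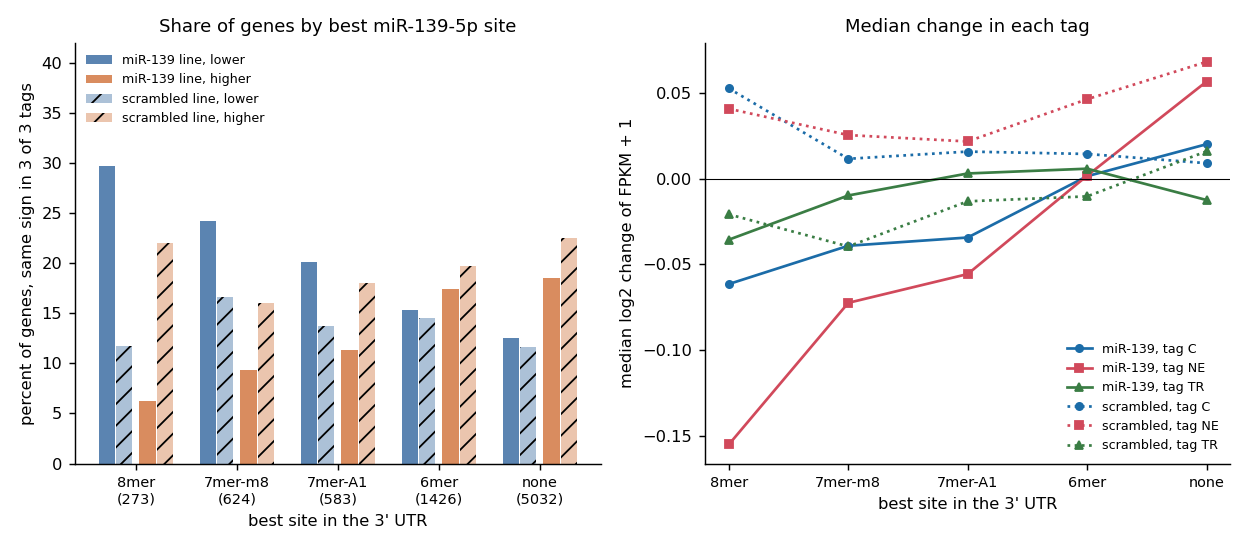
Left, percent of matched genes that were lower (blue) or higher (orange) in 3 of 3 tags by their best miR-139-5p site in the 3′ UTR (gene numbers in brackets), solid for the miR-139 line and hatched for the control, and right, the median log2 change of each class in each tag (solid and dotted lines). With the miRNA the share lower goes from 29.7% with an 8mer to 12.5% with no site, and with the scrambled sequence it lies between 11.6% and 16.7% in no such order.

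Genes reported elsewhere as miR-139-5p targets were mostly on the lower side. Of 21 tested, 18 had a negative fitted change, 7 were lower in 3 of 3 tags (33.3%, beside 14.5% of all tested genes), 1 was higher, and the median log2 change was −0.10, with tag medians of −0.033, −0.18 and −0.080 in C, NE and TR. The scrambled line had 4 lower and 1 higher, and the median was −0.0071. Without NE 11 were lower and 4 higher in both remaining tags of the miR-139 line (beside 26.2% and 26.5% of all genes), and the median was −0.045. HNRNPF is named in the series' own title, so its place in the list is no independent evidence. Of the 21 genes, 16 held an 8mer or 7mer-m8, and 6 of the 7 lower ones were among them. Over all matched genes the share lower in 3 of 3 tags was 29.7% with an 8mer and 24.2% with a 7mer-m8. Whether the listed targets differ from other genes with a site was not tested, and the 7 include HNRNPF and EIF4G2, the 2 calls. After HNRNPF and EIF4G2 the list held LMO4, a LIM-domain transcriptional adaptor, at 34.3, 17.3 and 18.6 FPKM untreated and 21.7, 16.6 and 15.9 treated, a difference that stood out in C only (log2 −0.30, SE 0.14). MCL1, which blocks mitochondrial apoptosis (−0.12, SE 0.10), the RAS-like GTPase RAP1B (−0.11, SE 0.08), the growth factor receptor IGF1R (−0.12, SE 0.13) and the matrix protease MMP11 (−0.18, SE 0.14) were lower in 3 of 3 tags without passing the threshold. The GTPase HRAS, without a site, was the 1 higher member: it went from 48.4, 79.2 and 63.1 FPKM to 60.7, 95.6 and 71.1 (0.25, SE 0.11).

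Of 55 gene programs with at least 5 tested members, the median of the members had the same sign in all 3 tags for 10 in the miR-139 line, 3 lower and 7 higher. The control line had 18, 7 lower and 11 higher. The 3 lower were the reported targets, the unfolded protein response (−0.060) and the cadherins and cell junctions, whose tag medians of −0.027, −0.053 and −0.023 stand beside a median of fitted changes of 0.0058 that was −0.021 after rescaling without mitochondrially encoded genes. The 7 higher were the extracellular matrix (0.084), thyroid differentiation (0.17), metallothioneins and metal handling (0.092), lysosome and autophagy (0.059), PI3K, mTOR and FOXO signalling (0.052), the WNT pathway (0.048) and tubulins and cilia (0.020, but −0.0095 after that rescaling). Apart from HNRNPF and EIF4G2, no member of any program passed the threshold in the fit of both lines. In bulk RNA, fewer cells of a kind and less RNA per cell cannot be told apart.

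**Figure D4:**
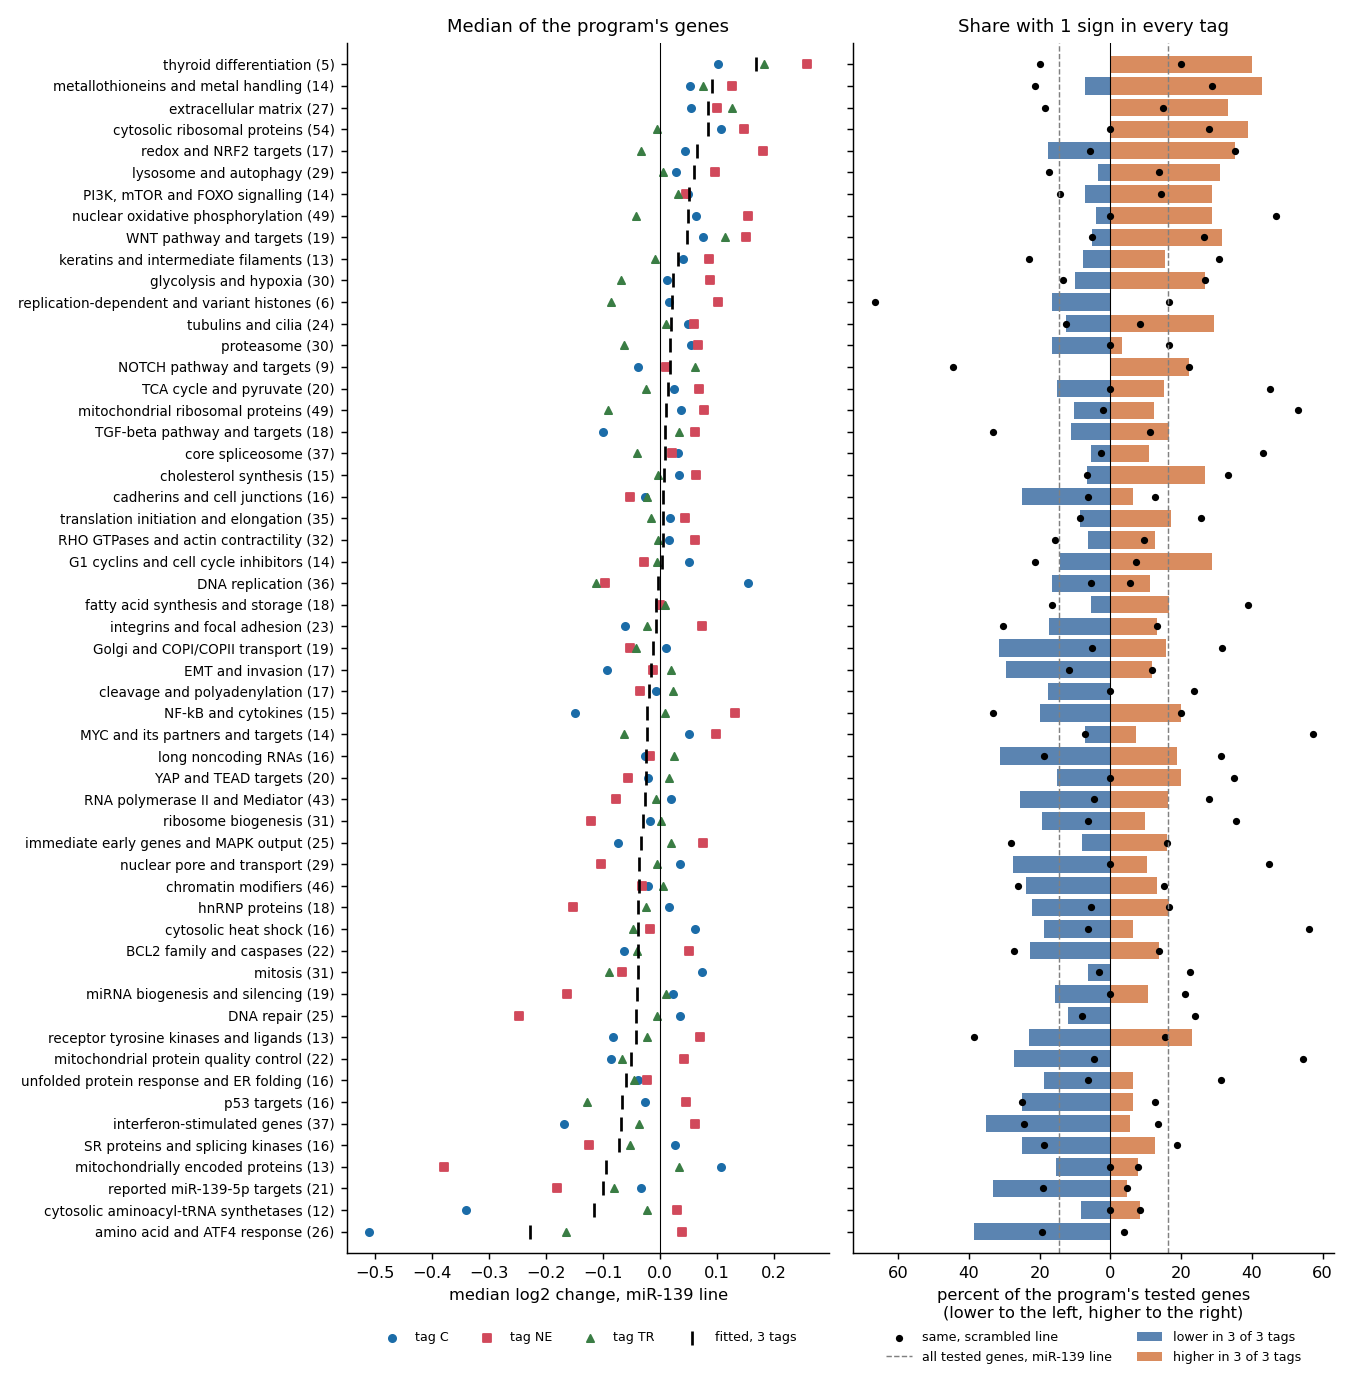
For each of 55 programs (tested members in brackets), the median log2 change in each tag of the miR-139 line (left, with the median of the fitted changes as a bar) and the percent of members lower (blue, to the left) or higher (orange, to the right) in 3 of 3 tags (right), with the scrambled line as dots and all tested genes as dashed lines. The amino acid and ATF4 response lies lowest, at −0.23, with its C value far below its NE value, and many programs spread over 0 between tags.

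The amino acid and ATF4 response had the lowest median of the 55 programs. ATF4 is the transcription factor that cells translate more when amino acids are short or eIF2 is phosphorylated, and it induces amino acid transporters, synthesis enzymes and stress genes. Of 26 tested members, 10 were lower in 3 of 3 tags (38.5%, beside 14.5% of all genes) and 0 higher, with a median of −0.23. The tags did not move alike: the medians were −0.51 in C, 0.038 in NE and −0.17 in TR. Without the NE libraries, 23 of 26 were lower in both remaining tags, beside 26.2% of all genes, and the median was −0.39. Without the C libraries 10 were lower, beside 24.8% of all genes, 1 was higher and the median was −0.089, so much of the size of the difference lay in C. The control line had 5 lower and 1 higher with tag medians of −0.34, 0.11 and 0.16, so the C tag was low in both lines. The untreated C library was the high one. CHAC1, which degrades glutathione and is a marker of ATF4 activity, was at 34.2, 4.89 and 18.1 FPKM before treatment and at 18.0, 4.43 and 8.002 after it (−0.70, SE 0.24).

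DDIT4, an inhibitor of mTORC1, was at 58.8, 13.2 and 28.1 FPKM and then at 26.3, 11.95 and 18.4 (−0.61, SE 0.25). It holds a 7mer-m8, as 2 of the 26 members hold that site or an 8mer. The neutral amino acid transporter SLC1A4 was at 17.5, 8.27 and 9.38 and then at 9.63, 7.19 and 7.64 (−0.41, SE 0.15). Both genes were lowest relative to untreated cells in C, and their untreated libraries differed more between tags than treated and untreated libraries differed within any tag. The transcription factors ATF5 (−0.16, SE 0.09) and DDIT3 (−0.28, SE 0.20) were also lower in 3 of 3 tags. ATF4 itself, the most abundant member, was at 463, 270 and 363 FPKM untreated and 364, 305 and 325 treated, lower in C and TR and higher in NE. The cytosolic aminoacyl-tRNA synthetases, several of them ATF4 targets, had 1 lower and 1 higher of 12 and tag medians of −0.34, 0.031 and −0.023.

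Interferon-stimulated genes, which restrict viruses, were lower in 3 of 3 tags for 13 of 37 members (35.1%, beside 14.5%) and higher for 2. The scrambled line had 9 lower and 5 higher, and the median of the differences between the lines was −0.014. Without the NE libraries 23 of 37 were lower in both remaining tags (beside 26.2% of all genes), and without C 14 were lower (beside 24.8%) and 8 higher, with a median of −0.015 in place of −0.068. Among the 27 members with a mean of at least 5 FPKM, 8 were lower and the median was −0.023. The tag medians in the miR-139 line were −0.17, 0.062 and −0.037. IFIT2, an RNA-binding antiviral protein, was at 7.43, 0.861 and 8.37 FPKM and then at 3.96, 0.641 and 6.61 (−0.42, SE 0.16), with −0.45 (SE 0.16) in the scrambled line. OASL, an oligoadenylate synthetase-like protein, was at 7.86, 0.437 and 3.86 and then at 3.03, 0.306 and 3.25 (−0.49, SE 0.20), with −0.47 (SE 0.20) in the scrambled line. The differences between the lines were 0.030 (SE 0.23) for IFIT2 and −0.018 (SE 0.28) for OASL, and both genes were below 1 FPKM in NE. SAMHD1, IFI16 and IFIT1 were lower by 0.14 to 0.36, while the membrane protein IFITM3 (0.20, SE 0.14) and PML (0.17, SE 0.11) were higher in 3 of 3 tags.

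Mitochondrial protein quality control, the factors that translate, fold and degrade proteins within the organelle, had more lower than higher members with the miRNA and more higher than lower ones with the scrambled sequence. In the miR-139 line 6 of 22 members were lower in 3 of 3 tags (27.3%, beside 14.5%) and 0 higher (beside 16.4%), while 16 had mixed signs. The tag medians were −0.087, 0.042 and −0.067, and without TR 8 were lower and 7 higher (beside 25.6% and 31.3% of all genes). The scrambled line had 1 lower and 12 higher (54.5%, beside 20.2%), and the median of the differences between the lines was −0.14, beside −0.021 over all genes. Like shares higher were seen there for cytosolic heat shock (56.25%), mitochondrial ribosomal proteins (53.1%) and nuclear oxidative phosphorylation (46.9%). Rescaling without mitochondrially encoded genes turned the scrambled line's counts over all genes from 1229 lower and 1974 higher to 2097 and 962. MTIF2, the mitochondrial initiation factor, was at 27.2, 24.3 and 26.0 FPKM and then at 23.5, 15.2 and 22.1, a drop in each tag that was largest in NE (−0.36, SE 0.11). MTIF2 has no site in its 3′ UTR and an 8mer in its coding sequence, at chr2:55252506-55252513 on the minus strand, in exon 7 of 15, shown here beside that of CPSF3 for its position.
MTIF2: tggagtgatgaaacaaACTGTAGAat

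MTIF3, a second initiation factor (−0.23, SE 0.10), the protease AFG3L2 (−0.13, SE 0.08), the release factor MTRF1 (−0.18, SE 0.12), the mitochondrial DNA packaging factor TFAM (−0.16, SE 0.10) and the unfoldase CLPX (−0.19, SE 0.13) completed the 6. None of them passed in either line or in the difference. The most abundant member, the chaperonin HSPD1, was at 368, 428 and 363 FPKM and then at 358, 371 and 367 (−0.077, SE 0.10), lower in C and NE only. The mitochondrially encoded proteins themselves had tag medians of 0.11, −0.38 and 0.033 with the miRNA and 0.12, −0.47 and 0.19 with the scrambled sequence, lowest in NE in both.

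Genes of the extracellular matrix were on the higher side. Of 27 members, 9 were higher in 3 of 3 tags (33.3%, beside 16.4% of all genes) and 0 lower, with a median of 0.084 and tag medians of 0.055, 0.10 and 0.13. The scrambled line had 4 higher and 5 lower, with a median of −0.048. With 1 tag left out, the members higher in both remaining tags were 14 without C (27.2% of all genes), 16 without NE (26.5%) and 10 without TR (31.3%), where 3 were lower and the median was 0.045. EFEMP1, a fibulin of elastic fibres, was at 212, 164 and 250 FPKM and then at 258, 199 and 326 (0.31, SE 0.09), but its change in the scrambled line was as large (0.31, SE 0.09). The fibulin FBLN1 likewise had 0.17 (SE 0.08) and 0.18. MFGE8, a secreted protein that bridges apoptotic cells to integrins of phagocytes, was at 115, 60.2 and 154 and then at 124, 89.2 and 178 (0.29, SE 0.11), and was lower in all tags of the control (−0.20, SE 0.11). The limma adjusted p of that difference was 1.00. The collagen COL18A1 (0.19, SE 0.12) and the proteoglycan AGRN (0.17, SE 0.09) were higher mainly in NE. Fibronectin, FN1, the most abundant member, was at 290, 58.1 and 438 FPKM and then at 272, 90.6 and 574, lower in C and higher in NE and TR. The summed fibroblast markers given above moved from 48.0 to 90.3 FPKM to 50.7 to 97.4, with COL3A1 at 0.

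**Figure D5:**
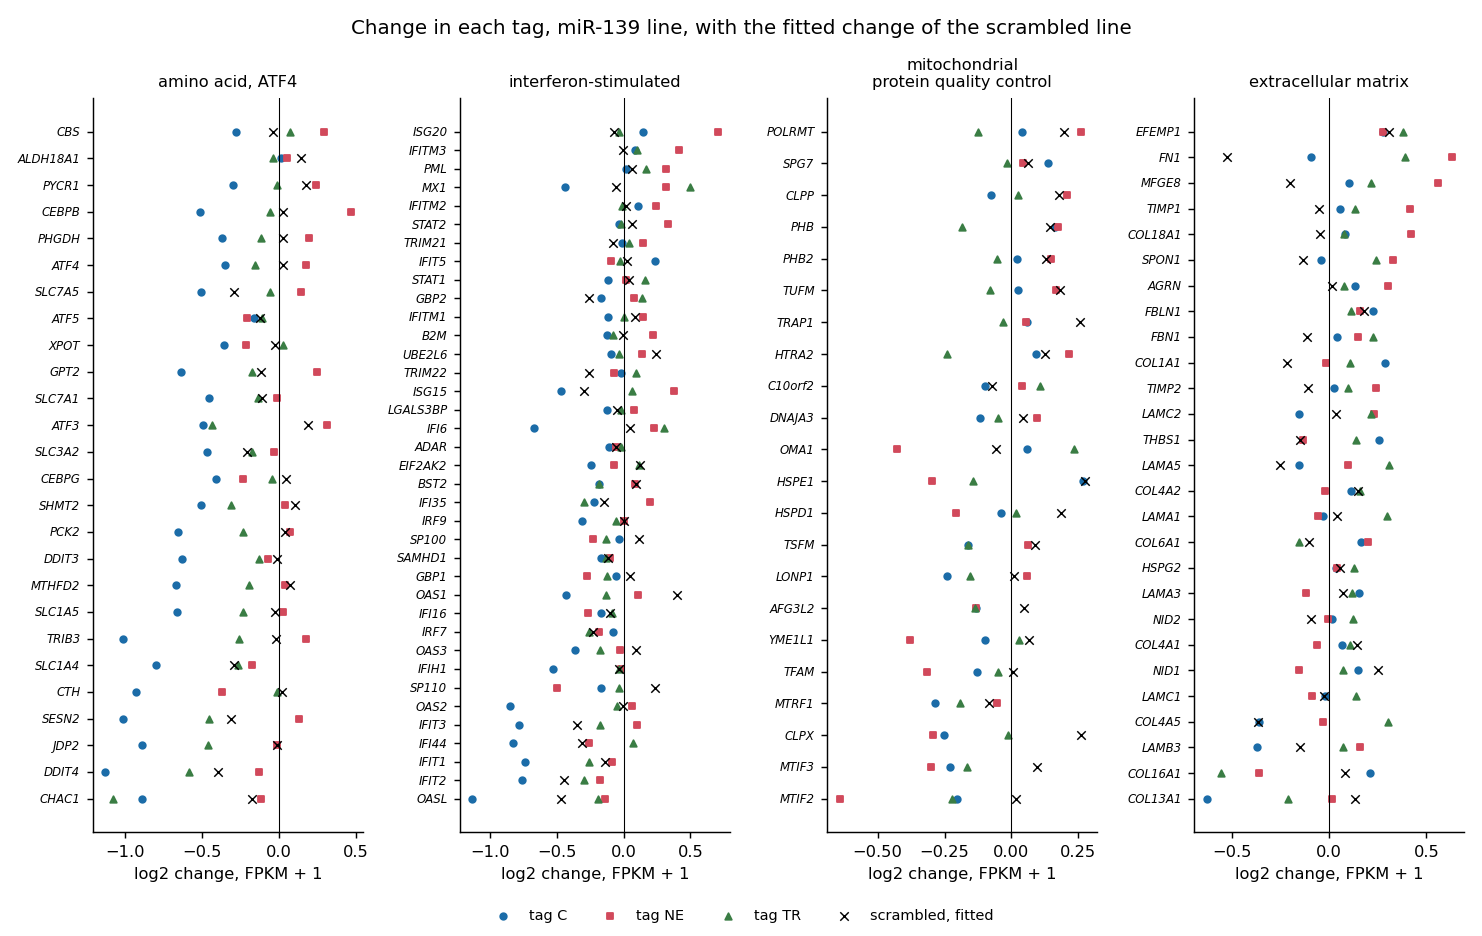
Log2 change of FPKM + 1 in each tag of the miR-139 line (horizontal axes) for the tested members of 4 programs, sorted by their fitted change, with the fitted change of the control as a cross. Members of the amino acid and ATF4 program are mostly lowest in C, with NE on both sides of 0, and the leading matrix gene EFEMP1 has its cross among its tag values.

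Other programs on the higher side were made of small changes. In lysosome and autophagy 9 of 29 were higher in 3 of 3 tags (31.0%, beside 16.4% of all genes) and 1 lower (beside 14.5%), against 4 and 5 in the control (beside 20.2% and 12.6%). Rescaling without mitochondrially encoded genes gave 7 higher and 4 lower, and leaving out NE gave 11 and 5 (beside 26.5% and 26.2% of all genes). They included the lysosomal hydrolases CTSA (0.13, SE 0.09) and CTSD (0.10, SE 0.10) and the sterol carrier NPC2 (0.13, SE 0.13), while its membrane partner NPC1 was lower (−0.13, SE 0.09), and each of these is within 1.5 times its SE. In the WNT pathway 6 of 19 were higher (31.6%) and 1 lower, against 5 and 1 in the scrambled line, and the median of 0.048 was 0.095 with a pseudocount of 0.1. After DKK1 these were ZNRF3, a ubiquitin ligase that removes WNT receptors (0.28, SE 0.12), the planar polarity protein PRICKLE1 (0.38, SE 0.15, against −0.45, SE 0.15, in the scrambled line), the ligand WNT5B (0.35, SE 0.15), the transcription factor TCF7L2 (0.20, SE 0.11) and the co-receptor LRP5 (0.18, SE 0.10), and the signal transducer DVL2 was lower (−0.13, SE 0.10). Among metallothioneins and metal handling 6 of 14 were higher (42.9%) and 1 lower, against 4 and 3 in the control, and quantile normalization left 4 higher. They included MT1X, MT1E, MT1M and the ferritin light chain FTL at 0.10 to 0.15, while MT2A, at 5400 to 7241 FPKM, had mixed signs. Metallothionein genes are near-identical copies, so reads may be shared among them. Of the 5 tested thyroid differentiation genes, PAX8 went from 86.2, 113 and 110 FPKM to 92.1, 142 and 134 (0.23, SE 0.12) and the thyroid hormone receptor THRA had a log2 difference of 0.21 (SE 0.11). The other 3 had mixed signs, and DUOXA1, a maturation factor of the thyroid's hydrogen peroxide source, had a fitted difference of −0.084 (SE 0.19). The median of 0.17 was 0.080 without NE and 0.0034 with no filter on low values, over 9 genes of which 1 was lower.

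Cytosolic ribosomal proteins and nuclear genes of oxidative phosphorylation had many higher members in both lines. Of 54 ribosomal protein genes, 21 were higher in 3 of 3 tags (38.9%, beside 16.4%) and 0 lower. The control had 15 higher (27.8%, beside 20.2% of all genes there) and 0 lower. After quantile normalization the 21 became 12, and 2 were lower. Without TR 45 were higher in both remaining tags, beside 31.3% of all genes. RPS28, a small-subunit protein, was the leading member, with 0.29 (SE 0.17) and, in the control, 0.19. Of 49 oxidative phosphorylation genes, 14 were higher (28.6%, beside 16.4%) and 2 lower, with 23 (46.9%, beside 20.2%) and 0 in the control. Without NE 18 were higher and 8 lower (beside 26.5% and 26.2% of all genes), and the median of 0.049 was 0.015. Without TR 33 were higher, beside 31.3% of all genes. The complex I subunit NDUFA3 changed by 0.27 (SE 0.12), against 0.14 in the scrambled line.

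Among the intracellular transport genes the Golgi and COPI/COPII program had 6 of 19 lower (31.6%, beside 14.5% of all genes) and 3 higher (15.8%, beside 16.4%). The scrambled line had 1 lower and 6 higher (beside 12.6% and 20.2% of all genes). The program's median of −0.012 in the miR-139 line was 0.0025 without TR. TMED10, a cargo receptor of COPI and COPII vesicles, was at 89.1, 86.0 and 95.4 FPKM and then at 68.3, 63.0 and 78.2, with no overlap of the groups (−0.37, SE 0.08, limma adjusted p = 0.382). It has an 8mer in its 3′ UTR, at chr14:75134303-75134310 on the minus strand, but was lower in 3 of 3 tags of the scrambled line as well (−0.23, SE 0.08), and the difference between the lines was −0.14 (SE 0.11).
TMED10: taaaagtgagctttgaACTGTAGAta

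Other members lower in 3 of 3 tags were TMED2 (−0.12, SE 0.08), the COPII GTPase SAR1A (−0.14, SE 0.08), the coat subunits COPB1 (−0.12, SE 0.10) and SEC23B (−0.085, SE 0.08), and the SNARE STX5 was higher (0.27, SE 0.10). Nuclear pore and transport genes had 8 of 29 lower (27.6%, beside 14.5% of all genes) and 3 higher (10.3%, beside 16.4%). The control had 0 lower and 13 higher (44.8%), beside 12.6% and 20.2% of all genes. Rescaling without mitochondrially encoded genes turned the control's counts over all genes to 2097 lower and 962 higher. In the miR-139 line the scaffold nucleoporin NUP160 was at −0.22 (SE 0.13) and the import receptor KPNB1 at −0.17 (SE 0.11). After upper quartile scaling the 8 became 5. The tag medians were 0.036, −0.10 and −0.0046. Without NE 8 were lower and 9 higher (beside 26.2% and 26.5% of all genes) with a median of 0.016, so the lower side rests on NE. Chromatin modifiers had 11 of 46 lower (23.9%) and 6 higher, close to the scrambled line's 12 and 7. Of the 8 chromatin modifiers with an 8mer or 7mer-m8 site, 5 were lower in 3 of 3 tags, among them the demethylase KDM6A (−0.23, SE 0.12). The share lower was 29.7% over all matched genes with an 8mer and 24.2% over those with a 7mer-m8. Among such genes of the core spliceosome 0 of 4 were lower, and of nuclear oxidative phosphorylation 1 of 7. Whether the chromatin count stands apart was not tested. The deacetylase HDAC6, without a site, was higher (0.34, SE 0.09, limma adjusted p = 0.646). Genes of mitosis had 2 of 31 lower and 0 higher, both below the shares of all genes, and the tag medians of 0.074, −0.067 and −0.090 differed in sign.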

How the data were processed

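The labels give polyA RNA, a directional kit and a HiSeq2500. The authors deposited FPKM values; per the submitters' processing notes, the builds were GRCh37 and hg19 and the tools STAR 2.5, HTSeq, Cufflinks, TopHat, TopHat2 2.0.10, SAMtools 1.3.1 and 0.1.19, FastQC 0.11.0 and Bowtie 1.0.0. Which tool made the FPKM values, and whether strand was used, is not given in the sources used here. Depth is known only as a ratio between libraries, so no counting interval is given. Column names give a group and a tag, not the replicate letter of the titles. Tags were taken to pair libraries: deviations from group means correlated at 0.33 to 0.86 within tags (18 pairs) and at −0.67 to 0.15 between tags (36 pairs). The deviations of the 3 libraries in a group sum to 0, so the values between tags are not independent of those within tags. No 2 libraries were identical (0 of 66 pairs).

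Genes with a mean of at least 1 FPKM over the 6 libraries of the miR-139 line were fitted on log2(FPKM + 1), a scale that understates changes of low genes, with limma 3.58.1 in R 4.3.3: 12 libraries, 4 group means, tag as a replicate block, variance trend, two-sided, Benjamini-Hochberg adjusted p below 0.05 over 9787 genes. On simulated data for this comparison (9787 genes) the fit recovered 94 of 100 changes of 1 and 51 of 100 of 0.5 on the log2 scale, with 6 false calls. The changes were planted away from the lowest expressed genes, with normally distributed noise and an additive tag effect. So many changed genes ease the adjusted threshold, and only 2 genes passed in the data. These rates therefore do not give the power of the real comparison.

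The members and lists were chosen with earlier results of these data known. Named genes are those called, the 14 lower and 14 higher genes of at least 5 FPKM with the largest smallest change over tags, up to 5 members per described program in its main direction and 2 in the other, and its most abundant member, with the reported targets, MIR139 and PDE2A. CLPX, LRP5 and DUOXA1, and the sites printed for TMED10, MTIF2, CPSF3 and CCNB1IP1, were chosen after values were seen. Sites were searched in the transcript with the longest 3′ UTR in GENCODE 29 (GRCh38, another build than the notes name). Of 9787 genes, 7608 matched by symbol and 330 by an older symbol.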

Additional observations from a re-analysis of the deposited data

Results flagged for a closer look

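HNRNPF stood apart between the 2 lines by the test of the difference itself. The doxycycline change in the miR-139 line minus that in the scrambled line was −1.09 on the log2 scale (SE 0.11, limma adjusted p = 0.00164), lower in 3 of 3 tags of the miR-139 line and mixed in the scrambled line. It was the 1 gene of 9787 past the threshold. Groups of 3 libraries are too small for a check of single outlying libraries.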

How the results depend on the processing

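Counts of calls depended on the error model. In the miR-139 line limma called 2 genes, against 0 with no replicate block, 8 in the fit with the replicate block on only the 6 libraries of the miR-139 line, 4 with the block nested in line, 1 with no filter on low values and 1 with quantile normalization, and leaving out 1 tag gave 0 to 2. The scrambled line's 0 calls became 2 with the nested block and 1 each with a mean of at least 5 FPKM and with quantile normalization. The 1 call for the difference between lines became 0 without the block, 2 with the nested block (HNRNPF and EIF4G2) and 0 to 0 without 1 tag. Leaving out a tag asks for a sign in 2 tags only and gave 2429 to 2568 lower and 2593 to 3067 higher genes in the miR-139 line and 2097 to 2291 and 2827 to 3399 in the scrambled line. In the scrambled line no filter gave 1873 lower genes, and rescaling without mitochondrially encoded genes gave 2097 lower and 962 higher. EIF4G2 missed the threshold with quantile normalization (limma adjusted p = 0.0929) and no filter (0.104). The fits that gave 8 and 4 genes both called CPSF3 and E2F7 besides HNRNPF and EIF4G2, and the first also CCNB1IP1, ACAP1, ALDH1A3 and RPL9P8. None of the 14 lower and 14 higher named genes changed sign under any alternative run. The median of the 8mer class was −0.10 to −0.070 over scalings and pseudocounts and −0.043 without the NE tag.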
